A study of Mus musculus with 8 samples.

Results

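The Nkx2-1 locus was examined here as all stretches of open chromatin within 100 kb of the Nkx2-1 gene body in mouse forebrain nuclei. Nkx2-1 lies on the minus strand of chromosome 12, from 56531958 to 56536908 in the GRCm38 build. The peaks that single-nucleus ATAC-seq gave in this window, from 56431958 to 56636908, were merged over 8 samples. This gave 31 merged regions, built from 199 peaks, of 292532 merged regions in the whole genome. They are called E1 to E31 in their order along the chromosome, so that low numbers lie downstream of the gene and high numbers upstream.

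All 8 samples were wild-type (WT) embryonic mouse brain, with no reporter, transgene or treatment given in the labels. Each of 4 dissected regions had 2 samples, namely the cortex (CTX), the medial ganglionic eminence (MGE), the lateral ganglionic eminence (LGE) and the caudal ganglionic eminence (CGE). The embryos were at E12.5 (E, embryonic day), except for CTX replicate 2, which came from E14.5. Age therefore cannot be told apart from the other differences between the CTX samples. The labels do not say whether samples came from separate litters or pooled embryos, so p-values below measure the spread between these samples, which may be technical.

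Nkx2-1 encodes a homeodomain transcription factor of the NK2 family, also known from lung and thyroid, whose expression in the ventral forebrain depends on the secreted signal Sonic hedgehog. In the telencephalon it marks the MGE, where it is required for MGE identity and for the expression of Lhx6, a LIM-homeodomain factor of MGE-derived interneurons. The transposase used in ATAC-seq inserts into DNA that is not wrapped in nucleosomes, so counts report accessible promoters and distal elements rather than transcription. Sfta3-ps, annotated as a processed transcript, lies directly downstream of Nkx2-1, and the long antisense transcript Gm26973 starts within Nkx2-1 and runs upstream towards Nkx2-9, a related NK2 homeobox gene.

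3 stretches are shown. They are the promoter, the distal element that was at least 2-fold higher in neuron-like MGE nuclei (E1), and, for its letters alone, the member whose central window held a core bound by NK2 factors (E14). The promoter is from RefSeq (GRCm38.p6), covers the 250 bases upstream of the start site at chr12:56536909-56537158 and is written on the minus strand. The other 2 stretches are the central 300 bases of E1 at chr12:56440827-56441126 and of E14 at chr12:56515108-56515407, both on the plus strand of GRCm38. Capitals mark a match to TCAAGTG on either strand.
Nkx2-1 promoter: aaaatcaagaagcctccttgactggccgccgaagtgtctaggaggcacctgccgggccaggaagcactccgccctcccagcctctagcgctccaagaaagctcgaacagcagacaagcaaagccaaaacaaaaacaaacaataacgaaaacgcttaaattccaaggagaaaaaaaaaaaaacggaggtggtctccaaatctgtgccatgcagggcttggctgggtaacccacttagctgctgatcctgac
E1: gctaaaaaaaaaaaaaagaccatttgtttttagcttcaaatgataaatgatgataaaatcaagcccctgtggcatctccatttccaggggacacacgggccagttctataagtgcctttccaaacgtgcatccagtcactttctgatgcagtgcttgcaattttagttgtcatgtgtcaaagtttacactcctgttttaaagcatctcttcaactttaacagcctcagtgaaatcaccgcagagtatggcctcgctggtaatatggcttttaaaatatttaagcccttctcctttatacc
E14: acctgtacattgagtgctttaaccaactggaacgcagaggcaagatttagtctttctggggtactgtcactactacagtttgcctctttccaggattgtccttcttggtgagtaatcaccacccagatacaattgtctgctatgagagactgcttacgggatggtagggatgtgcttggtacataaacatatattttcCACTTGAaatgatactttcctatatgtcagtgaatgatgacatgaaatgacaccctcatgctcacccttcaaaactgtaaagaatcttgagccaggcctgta

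The letters TCAAGTG, a core bound by NK2 factors, occurred in the central 300 bases of 1 of the 31 members, E14, at 56515306 to 56515312 on the minus strand. Of the 68274 windows of the same length over regions with a peak in all 8 samples, 3.75% held it, beside 3.23% of the members. Of the 10 members that also had a peak in all 8 samples, 0 held it. For members narrower than the window, such as E11 of 10 bp, the window reaches beyond the member. The match lies outside the 39 bp of E14 that were in a peak in MGE replicate 2, where E14 had 5 counts. TAATTA, the core of many homeodomain sites, was found in 4 members (E21, E25, E26 and E31) and in 9.79% of all windows. Of these members only 2, E26 and E31, are among the 10 with a peak in all 8 samples. GACCACCCA (GLI type), AACAATG (SOX type) and ATGCAAAT (POU octamer) were in no member window, against 0.264%, 4.69% and 2.56% of all windows. Both strands were searched for each motif, and matches are descriptions of letters, not of binding. The 5272 bp around the start site that lay in a peak in every sample held TCAAGTG at 2 further places, one in the 5′ UTR exon at 56536801 to 56536807. The other lay 0.75 kb upstream of the start site, at chr12:56537656-56537662 on the plus strand, and is shown with its flanks. TAATTA occurred once in this block and once in the block of 644 bp, and ATGCAAAT once in that of 2079 bp. No background share was computed for stretches of these lengths.
Upstream match: ccacgctagaTCAAGTGaacggcagaa

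The GC content of the central windows was 39.3% in E1 and 42.3% in E14, beside a median of 49.7% over the windows of regions with a peak in all 8 samples. The promoter stretch had a GC content of 50.8%.

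The libraries held 39253 nuclei in all, 3465 to 6845 per sample, with 77387940 to 138873845 counts in peaks and a median of 14584 to 22209.5 counts per nucleus. The number of peaks called ranged from 103633 to 182638. No pair of libraries shared more than 56 barcodes. Summed counts at Lhx6 and Lhx8 were higher in both MGE samples than in the other 6. Counts at the cortical genes Emx1, Neurod6 and Eomes were higher in both CTX samples than in the other 6. Those at Tbr1 were not, with 151 and 81.7 CPM in CTX replicates 1 and 2 and 70.9 to 108 CPM elsewhere. LGE replicate 1 stood apart at Dlx5, a gene of all the eminences, with 61.6 CPM against 320 CPM in LGE replicate 2, and at Gsx2 with 38.2 against 136 CPM. These sums depend on the peaks called. In LGE replicate 2, Dlx5 and Dlx6 had the same sum of 320 CPM, as genes that share a peak are each given its counts. In LGE replicate 1 they had 61.6 and 99.0 CPM. Gsx2 was covered over 3.49 and 10.2 kb in LGE replicates 1 and 2, with 10.95 and 13.4 CPM per covered kilobase. For comparisons among the eminences, counts of calls are therefore also given without LGE replicate 1 where they changed. In sums over a dissected region, fewer nuclei of a type and less accessibility per nucleus cannot be told apart.

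Counts were summed over nuclei and given as CPM, the counts of a sample scaled to a total of 1000000 counts in the regions that had a peak in all 8 samples. Pairs of values are for replicates 1 and 2, in that order. Peaks were called separately in each sample, so a wider peak also collects more counts, and the length covered by peaks is given for the locus and for the members described in full. Summed over all members, the Nkx2-1 locus had 98.2 CPM in the E12.5 and 163 CPM in the E14.5 CTX sample, 981 and 678 in MGE, 224 and 209 in LGE, and 264 and 188 in CGE. Both MGE samples lay above every other sample, both CTX samples lay below every LGE and CGE sample, and LGE and CGE overlapped. On the log2 scale the MGE mean exceeded that of the 6 other samples by 2.16 (4.46-fold). This gave p = 0.0357 in an exact two-sided permutation test over the 28 choices of 2 samples, the smallest p this design allows. Leaving out each sample in turn gave differences from 1.89 to 2.42, and with a single MGE sample left the smallest p possible was 0.143, so the test could not pass.

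Part of that difference was in how much of the locus was called as peak. Member peaks covered 69.9 and 57.3 kb in MGE, 22.2 and 36.4 kb in CTX, 28.3 and 37.9 kb in LGE, and 41.3 and 40.4 kb in CGE. Per covered kilobase the locus had 14.02 and 11.8 CPM in MGE, beside 4.42 and 4.49 in CTX, 7.91 and 5.52 in LGE, and 6.396 and 4.65 in CGE. The MGE samples were again the 2 highest, with a difference of 1.25 on the log2 scale (2.37-fold, exact permutation p = 0.0357). Confined to peaks within 50 kb of the gene body, the difference was 2.79 (6.93-fold).

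The peak over the Nkx2-1 start site was the widest feature of the locus. It spanned 24291 bp in MGE replicate 1, the 15th widest of 105456 peaks in that sample, and 21513 bp in MGE replicate 2, the 14th widest of 163509. In the other 6 samples it spanned 5272 to 6342 bp and ranked between 342nd and 1099th by width. The peak held 521 and 354 CPM in MGE, 17.6 and 23.3 in CTX, 34.3 and 32.5 in LGE, and 36.4 and 31.9 in CGE. Per kilobase of the peak itself the values were 21.4 and 16.4 CPM in MGE, 3.35 and 3.71 in CTX, 6.33 and 5.19 in LGE, and 5.96 and 5.02 in CGE. By each of these 3 measures (width, counts and counts per kilobase) the MGE samples did not overlap the others.

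The merged region that holds this peak, E15, ran from 56517497 to 56541787 and was the 28th widest of all merged regions, where the median width of regions with a peak in all 8 samples was 1533 bp. It holds a start site of Sfta3-ps, both annotated start sites of Nkx2-1 and the start of Gm26973. In MGE it was covered by 1 peak (100% of its length) and by 2 peaks (94.0%). In the other samples 6 to 9 separate peaks covered 41.4% to 74.7% of it. Within it, 5 blocks lay in a peak in every sample. The longest, of 5272 bp, covered the Nkx2-1 start site, and the others, of 2079, 644, 574 and 552 bp, lay over introns and a start site of Sfta3-ps and an exon of Gm26973.

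Stretches that lay in a peak in both MGE samples and in none of the other 6 made up 15.2% of the bases of E15 and 15.8% of the bases of all members, against 0.854% of all bases in merged regions. The longest was 2020 bp in an exon of Sfta3-ps (56512237 to 56514256), followed by 994 bp in an intron of the same transcript (56527013 to 56528006) and 915 bp between genes (56486525 to 56487439). The sum of E15 was 521 and 364 CPM in MGE, 32.7 and 56.2 in CTX, 70.2 and 78.5 in LGE, and 83.2 and 73.4 in CGE. Per covered kilobase E15 had 21.4 and 16.0 CPM in MGE and 3.17 to 5.93 CPM elsewhere.

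Of the 31 members, 10 had a peak in all 8 samples (32.3% of members, against 23.3% of all merged regions), 12 had one in all 6 ganglionic eminence samples and 10 were called in a single sample. 6 members had a peak in both MGE samples and in no other, a pattern seen in 0.61% of all merged regions. These were E4, E7, E9, E10, E14 and E16, of which 5 lie downstream of the gene and E16 lies 10.5 kb upstream. Their counts were low and uneven between the MGE samples. E7, an intergenic region 50.3 kb downstream, had 6.18 and 1.503 CPM, and E9, over a start site of Sfta3-ps, had 4.23 and 0.844 CPM. E10 and E14 in introns of Sfta3-ps had 3.34 and 0.701 CPM and 1.01 and 0.0716 CPM. Only E4, 72.2 kb downstream (1.55 and 1.26 CPM), and E16 (0.909 and 0.773 CPM) were close to equal in both. A region without a peak in a sample has no counts in the deposited matrix, so the other 6 samples have no measured level there.

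Among the 10 members with a peak in all 8 samples, both MGE samples exceeded each of the 6 others in 7 by CPM, in 6 by covered length and in 5 by CPM per covered kilobase. Over all regions with a peak in all 8 samples these shares were 7.82%, 5.11% and 4.48%. In no member did both MGE samples lie below the others by any of these measures, against 10.9%, 5.59% and 6.84% of all such regions.

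**Figure D1:**
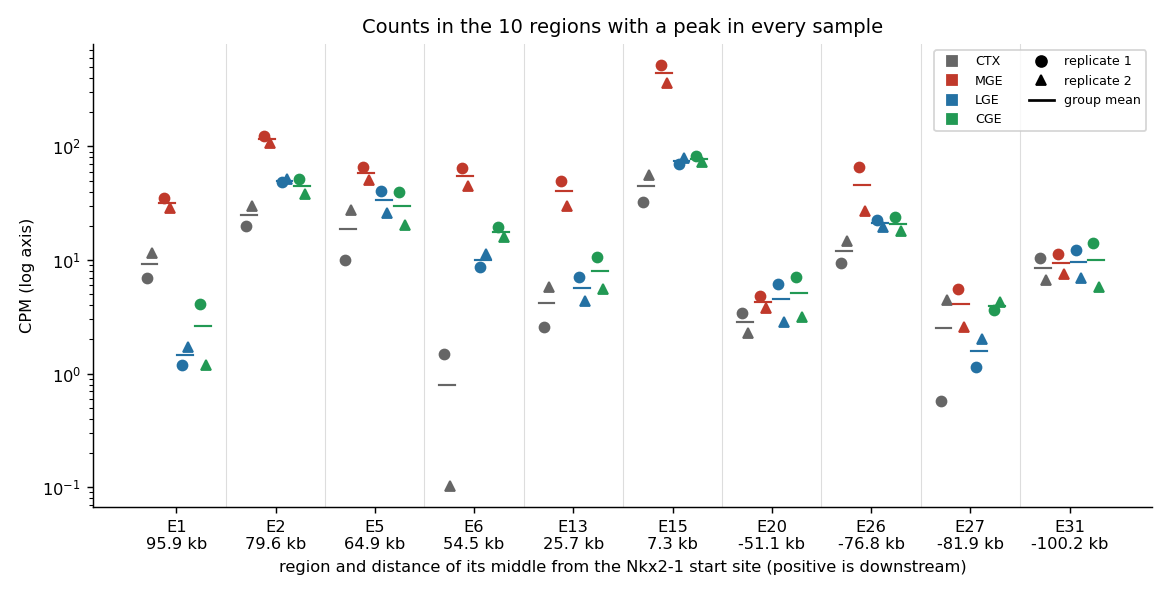
CPM (log axis) of the 10 members with a peak in all 8 samples, with 1 point per sample coloured by dissected region and a line at each group mean. MGE points stand above all others at E1, E2, E5, E6, E13, E15 and E26, and lie among them at E20, E27 and E31.

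The distal elements downstream of Nkx2-1 differed in which of the other regions also had them open. E1, intergenic and 95.9 kb downstream (56439363 to 56442590), had 34.9 and 28.5 CPM in MGE, 6.88 and 11.6 in CTX, 1.19 and 1.71 in LGE, and 4.06 and 1.19 in CGE. It was the only member of the 10 in which both CTX samples lay above all LGE and CGE samples while MGE lay above CTX. E1 was covered over 3159 and 2360 bp in MGE and over 374 to 2095 bp elsewhere.

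E2, intergenic and downstream, had the second-highest counts of the locus. It held 124 and 108 CPM in MGE, 19.9 and 29.97 in CTX, 48.6 and 51.4 in LGE, and 52.1 and 38.3 in CGE. The MGE samples were highest, and CTX lowest. Its covered length was 6340 and 5920 bp in MGE against 1819 to 4073 bp elsewhere, and per covered kilobase MGE (19.6 and 18.2 CPM) overlapped LGE (20.1 and 15.3 CPM).

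E6, intergenic and 54.5 kb downstream (56479926 to 56484802), had 64.9 and 45.2 CPM in MGE, 1.48 and 0.102 in CTX, 8.72 and 11.3 in LGE, and 19.6 and 16.0 in CGE. The regions were fully ordered here, with MGE above CGE, CGE above LGE and LGE above CTX in every sample. The CTX replicate 2 value rests on 8 counts in 130 bp of peak. E5, intergenic and 64.9 kb downstream (56470153 to 56473955), was more evenly open, with 66.5 and 50.4 CPM in MGE, 9.99 and 27.8 in CTX, 40.8 and 26.2 in LGE, and 40.0 and 20.4 in CGE. E5 was covered over 3733 and 3295 bp in MGE and 1602 to 3416 bp elsewhere, so that MGE replicate 2 overlapped the others in length, and E6 over 4874 and 3286 bp against 130 to 2517 bp.

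E13 lies over a start site of Sfta3-ps, 25.7 kb downstream (56507953 to 56514535). It had 50.1 and 30.2 CPM in MGE, 2.59 and 5.77 in CTX, 7.02 and 4.398 in LGE, and 10.5 and 5.55 in CGE. E13 was covered over 6583 and 5608 bp in MGE and 1052 to 3026 bp elsewhere. The MGE samples were the 2 highest, also per covered kilobase, where they had 7.61 and 5.38 CPM against 2.46 to 4.56 CPM in the others.

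Upstream, E26 lies over the start site of Nkx2-9, 76.8 kb from that of Nkx2-1 (56610464 to 56617050). It had 65.3 and 26.8 CPM in MGE, 9.41 and 14.8 in CTX, 22.7 and 19.4 in LGE, and 23.9 and 18.0 in CGE. E26 was covered over 6512 and 5625 bp in MGE and 2995 to 5589 bp elsewhere. MGE replicate 2 was close to the highest CGE sample, and per covered kilobase its 4.77 CPM lay within the range of the others. E27, 81.9 kb upstream, had 5.57 and 2.56 CPM in MGE and 0.574 to 4.44 CPM in the other samples. E20, in an intron of Gm26973 51.1 kb upstream, had 4.81 and 3.76 CPM in MGE and 2.29 to 7.04 elsewhere. E31, 100.2 kb upstream, had 11.4 and 7.59 CPM in MGE and 5.76 to 14.1 elsewhere. At E20, E27 and E31 the MGE group overlapped the others.

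The remaining members were small. E18 and E22, upstream within Gm26973 and in an exon of C87198, had peaks in 7 samples and no more than 3.83 CPM in any. E3, E17 and E28 had peaks in 6, 4 and 6 samples and no more than 1.83 CPM. Of the 10 members called in a single sample, 5 were in an MGE sample (at most 4.79 CPM, in E8), 3 in CTX replicate 2 and 2 in CGE replicate 2.

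To ask which elements differed between the regions beyond the spread of the replicates, edgeR's quasi-likelihood test was run over all regions with a peak in every sample of the fit, with Benjamini-Hochberg adjustment over all of them and an adjusted p of 0.05 or less as the call. For the eminences the fit held the 6 MGE, LGE and CGE samples and 76295 regions. Against LGE, 5 of the 12 members tested were called, all higher in MGE. Over all regions 11.1% were called in either direction and 5.05% as higher in MGE. E1 was higher by 4.48 ± 0.53 on the log2 scale (SE, n = 2 against 2, edgeR adjusted p = 0.00378), the largest of the 5. E13 was higher by 2.84 ± 0.39, E15 by 2.59 ± 0.21, E6 by 2.48 ± 0.26 and E2 by 1.23 ± 0.18, with edgeR adjusted p from 0.00203 (E15) to 0.00684 (E2). With the 2 CTX samples added to the fit, which leaves 10 members and 68274 regions, 0.694% of regions and 2 members (E1 and E15) were called, and E2, E6 and E13 were not. The median log2 difference of the 12 members was 1.196, beside -0.015 over all regions.

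Against CGE, 5 of 12 members were called, again E1, E2, E6, E13 and E15, all higher in MGE. Over all regions 9.56% were called in either direction and 3.74% as higher in MGE. The log2 differences were 3.69 ± 0.51 for E1, 2.58 ± 0.21 for E15, 2.42 ± 0.38 for E13, 1.71 ± 0.25 for E6 and 1.44 ± 0.18 for E2 (SE, edgeR adjusted p from 0.00285 for E15 to 0.01 for E13). Both comparisons share the MGE samples. Without CGE replicate 2 the count fell to 3, with E13 (edgeR adjusted p = 0.0599) and E6 (0.0559) no longer called, beside 2.42% of all regions. With the CTX samples in the fit 0.325% of regions and 1 member, E15, were called, and E1, E2, E6 and E13 were not. The members that were not called had smaller or less even differences. E5 was higher in MGE by 0.83 ± 0.32 than in LGE (edgeR adjusted p = 0.157) and by 1.05 ± 0.32 than in CGE (0.089), and E20 and E31 had differences from LGE of -0.046 ± 0.44 and 0.018 ± 0.43.

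Against CTX, in a fit of all 8 samples and 68274 regions, 5 of 10 members were called, all higher in MGE. Over all regions 11.8% were called in either direction and 4.9% as higher in MGE. E6 was higher by 6.08 ± 0.99, E15 by 3.29 ± 0.31, E13 by 3.24 ± 0.53, E2 by 2.19 ± 0.24 and E26 by 1.91 ± 0.43 (SE, edgeR adjusted p from 0.00391 for E15 to 0.0338 for E26). The size of the E6 difference rests on uneven CTX values of 1.48 and 0.102 CPM, from 160 and 8 counts. The difference of E1 was 1.75 ± 0.56 (edgeR adjusted p = 0.092), so that the element with the largest difference from LGE and CGE did not pass against CTX. The count depended on single samples, being 2 without MGE replicate 1 and 8 without CTX replicate 2, the E14.5 sample, when 2.01% and 26.3% of all regions were called. E26 was not called when MGE replicate 1, CTX replicate 1 or any LGE or CGE sample was left out.

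Between LGE and CGE, 0 of 12 members and 0 of the 76295 regions (0%) were called by edgeR. At an unadjusted p under 0.05, 9512 regions and 2 members passed, E6 with a log2 difference of LGE from CGE of -0.77 ± 0.25 and E27 with -1.26 ± 0.47. DESeq2 called 4.13% of regions and 0 members in this comparison. For E15 the difference was -0.013 ± 0.20.

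**Figure D2:**
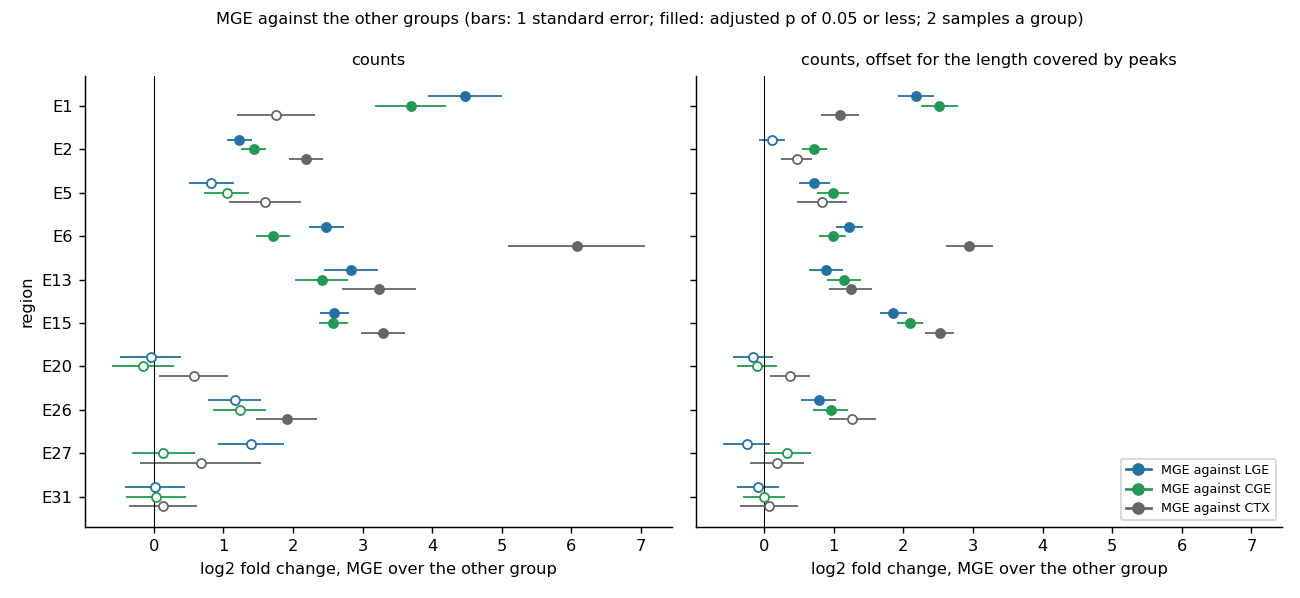
Log2 difference of MGE from LGE, CGE and CTX (points, edgeR) with 1 standard error (bars) for the 10 members with a peak in all 8 samples, from counts (left) and with the covered-length offset (right), filled where the adjusted p is 0.05 or less. On the left E1 is farthest above 0 against LGE and CGE, and E6 against CTX, while E20 and E31 lie near 0 against LGE and CGE; on the right E2 lies near 0 against LGE.

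When the fit was given an offset for the length each sample's own peaks covered, 6 of 12 members were called against LGE, 7 of 12 against CGE and 4 of 10 against CTX, all higher in MGE. Of all regions 7.34%, 5.8% and 6.88% were then called in either direction and 1.55%, 3.46% and 3.25% as higher in MGE. DESeq2, without the offset, called 8, 7 and 7 members, beside 17.4%, 16.1% and 22.1% of all regions. Under the covered-length offset, E1, E6, E13 and E15 were higher in MGE in each of the 3 comparisons. E2 was not called under the offset against LGE or CTX, with a difference of 0.11 from LGE (edgeR adjusted p = 0.823) and 0.46 from CTX (0.282). E26 and E5 were called under the offset against both LGE and CGE. The offset also moved the median log2 difference of all regions, from -0.015 to -0.18 against LGE and from -0.0057 to 0.10 against CGE, while the median of the members was 0.41 and 0.84.

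At the level of single nuclei, a count in E15 was recorded in 83.0% of the nuclei of MGE replicate 1 (95% exact binomial interval 82.1% to 83.9%) and 77.9% of those of MGE replicate 2 (76.5% to 79.3%). The share was 27.2% and 32.5% in CTX, where the gene is not known to be active and which serves here as background, and 36.6% to 41.6% in LGE and CGE. These intervals cover counting error only. Since deeper nuclei record more regions, nuclei with at least 5000 counts in the regions with a peak in all 8 samples were thinned to that number. The shallower nuclei were left out, 324 and 203 in CTX, 841 and 183 in MGE, 770 and 182 in LGE, and 363 and 137 in CGE. The shares were then 78.9% and 66.9% in MGE, 11.7% and 19.5% in CTX, 22.3% and 24.0% in LGE, and 25.7% and 23.6% in CGE. The MGE mean exceeded that of the other 6 samples by 51.8 percentage points (72.9% against 21.1%, exact two-sided permutation p = 0.0357, the smallest possible). The 2 permutation tests of the locus have this same p, so Benjamini-Hochberg adjustment over them leaves it at 0.0357, while a stricter Bonferroni adjustment would raise it. Wider peaks also raise this share.

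The distal elements were recorded in fewer nuclei at the same thinning. E2 was found in 33.5% and 26.6% of MGE nuclei and in 7.74% to 17.6% in the other samples. E6 was found in 20.8% and 14.2% of MGE nuclei against 0.06% to 7.26% elsewhere, and E1 in 12.2% and 11.2% against 0.53% to 4.66%. Both MGE samples exceeded the other 6 at each of these elements. A thinned nucleus had a count in a mean of 2.13 and 1.63 of the 10 shared members in MGE and in 0.375 to 0.887 elsewhere. Before thinning, 7.89% and 12.7% of MGE nuclei had no count in any of them, against 27.6% to 45.2% in the other samples.

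**Figure D3:**
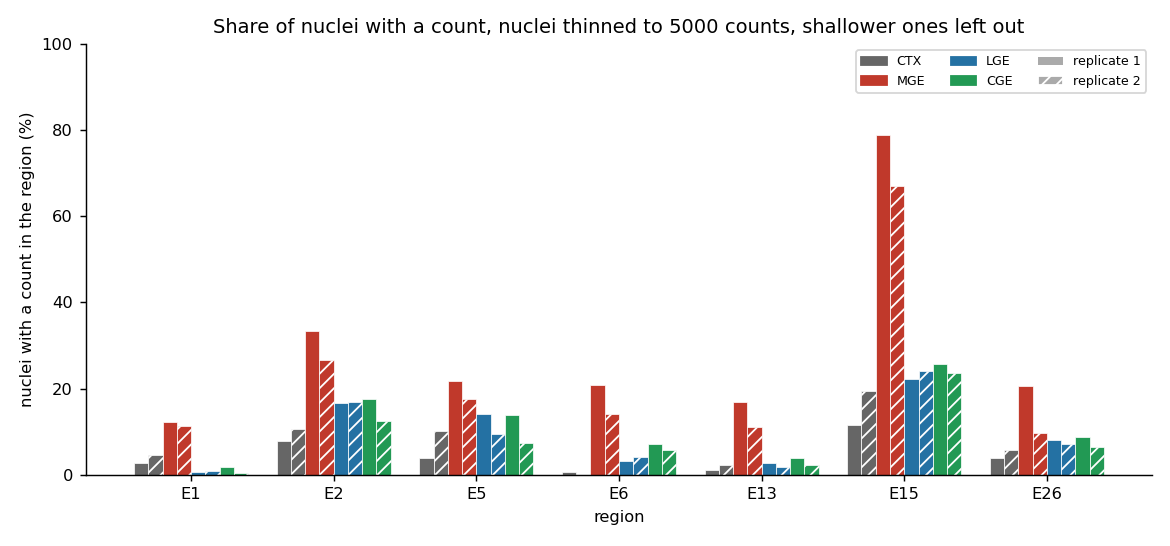
Share of nuclei (percent) with a count in 7 of the members with a peak in all 8 samples, after thinning to 5000 counts and leaving out shallower nuclei, with 1 bar per sample (plain for replicate 1, hatched for replicate 2). E15 is recorded in 78.9% and 66.9% of MGE nuclei and in 11.7% to 25.7% elsewhere, and the other elements shown in at most 33.5%.

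Within the MGE, nuclei were clustered from regions that left out 1 Mb on either side of the locus, so that the members took no part in the clustering. 3066 nuclei formed a progenitor-like cluster, in which 9 of 10 progenitor markers were raised. 3 clusters of 1910, 1674 and 914 nuclei were GABAergic neuron-like, with 7, 4 and 7 of 11 markers raised. The name of the cluster of 1674 nuclei is the least secure, as Lhx6 was lower in it than in the other nuclei (-0.32 on the log2 scale) and, at a clustering resolution of 1.0, a cluster of 1209 nuclei that also had Tmem130 and Efcab1 among its leading genes, and the glutamatergic gene Slc17a6, had 2 of 11 markers raised and went unnamed. 3 clusters of 1564, 1077 and 105 nuclei were left unnamed. That of 1077 held very deep nuclei (median 49776 counts), and that of 105 had 4 of 5 endothelial, 4 of 5 mural and 3 of 3 microglial markers raised, so that no list led. The macrophage gene Mpeg1 led the progenitor-like cluster by fold, with 0 of the 3 microglial markers measured raised in it. The neuron-like clusters were unevenly drawn from the replicates, the smallest holding 2.83% of MGE replicate 1 and 20.8% of MGE replicate 2, so values are given within each replicate and as descriptions without a test.

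E1 and E2 went opposite ways between these classes. E1 had 55.2 CPM in neuron-like and 10.6 CPM in progenitor-like nuclei of MGE replicate 1, and 45.0 and 6.62 CPM in replicate 2, which is 5.22- and 6.80-fold higher in the neuron-like nuclei. On the log2 scale that is 2.38 and 2.77, and at a clustering resolution of 1.0 it was 2.28 and 1.90. E2 had 58.0 CPM in neuron-like and 190 CPM in progenitor-like nuclei of replicate 1, and 40.1 and 183 CPM in replicate 2, which is 3.28- and 4.56-fold higher in the progenitor-like nuclei. In each of the 3 neuron-like clusters and both replicates, E1 was higher (31.1 to 92.1 CPM) and E2 lower (20.5 to 103 CPM) than in the progenitor-like cluster. These were the members of the 10 that differed by at least 2-fold in both replicates, 1 in each direction. Among all regions with a peak in all 8 samples 14.7% were so much higher in neuron-like and 12.2% in progenitor-like nuclei.

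The other elements lay between these. E6 was 1.97- and 2.63-fold higher in progenitor-like nuclei, with 78.0 against 39.6 CPM in replicate 1 and 61.4 against 23.3 CPM in replicate 2. E5 was 1.67- and 1.68-fold higher in neuron-like nuclei, with 65.9 against 39.5 and 49.3 against 29.4 CPM, but the cluster of 1674 neuron-like nuclei had less E5 than the progenitor-like cluster (29.0 and 18.8 CPM). E15 itself was open in both classes, with 445 CPM in neuron-like and 554 CPM in progenitor-like nuclei of replicate 1 and 274 and 418 CPM in replicate 2. The neuron-like clusters differed in it, the cluster of 1674 nuclei being lowest with 324 and 211 CPM, against 515 and 266 CPM in that of 1910 nuclei and 428 and 362 CPM in that of 914. E13 had 50.6 and 51.5 CPM in replicate 1 and 32.0 and 28.9 CPM in replicate 2 in neuron-like and progenitor-like nuclei, and E26 had 65.1 and 61.9 CPM and 24.5 and 28.9 CPM, so neither kept a direction across the replicates.

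Among the MGE-only elements, E16 was 4.19- and 4.29-fold higher in progenitor-like nuclei (1.67 against 0.399 and 1.04 against 0.242 CPM). E9 was higher in neuron-like nuclei, with 6.32 against 2.18 CPM in replicate 1 and 1.53 against 0.195 CPM in replicate 2. E4 had the same direction, with 2.44 against 0.674 and 2.02 against 0.26 CPM. In replicate 2 the progenitor-like values rest on 3 counts for E9, 4 for E4 and 16 for E16. The neuron-like value of E16 there (0.242 CPM) rests on fewer than the 9 counts of E10 (0.363 CPM). E10 was 1.42-fold higher in neuron-like nuclei of replicate 1 and had 9 counts in neuron-like and 14 in progenitor-like nuclei of replicate 2. E14 was 1.74-fold higher in replicate 1, and its 2 and 3 counts in replicate 2 give no direction. E7 was nearly level (0.915- and 0.828-fold). For orientation, the counts of the whole Lhx6 gene were 409 CPM in neuron-like and 113 CPM in progenitor-like nuclei of replicate 1, and those of Hes5, a Notch effector of progenitors, were 164 and 416 CPM.

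**Figure D4:**
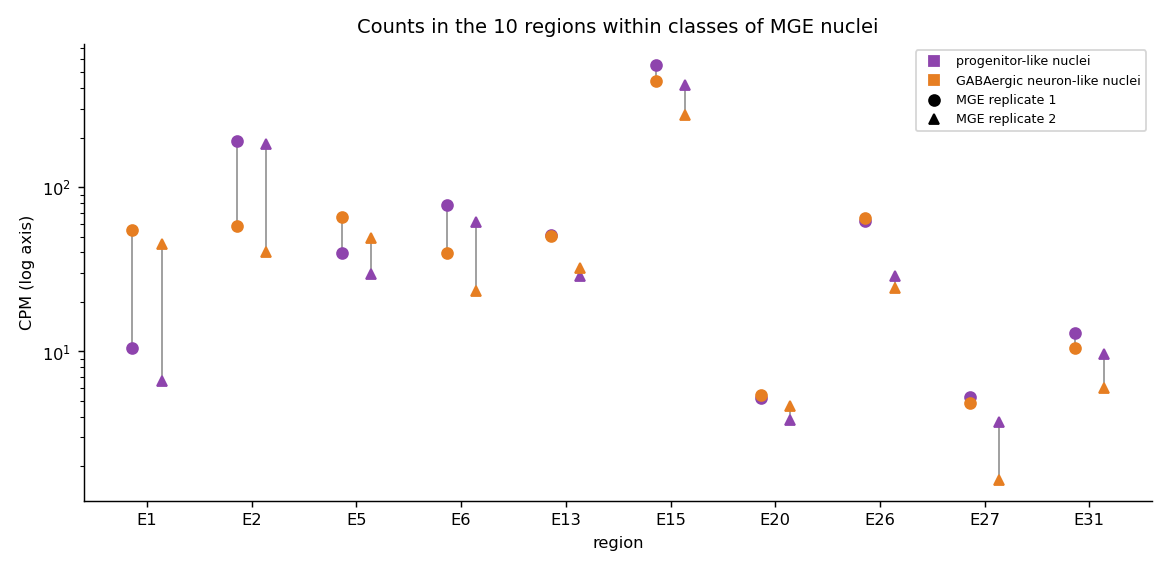
CPM (log axis) of the 10 members with a peak in all 8 samples in progenitor-like and GABAergic neuron-like MGE nuclei, for MGE replicates 1 and 2. E1 is higher and E2 lower in neuron-like than in progenitor-like nuclei in both replicates, and E13 is nearly level.

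Other genes of the pathway were read as the counts in peaks over the gene body or the 2000 bp upstream. A list of 38 genes held neighbours of Nkx2-1, members of the hedgehog pathway, ventral regulators, genes of the adjoining domains and other NK2 genes. The gene sum of Nkx2-1, which takes in the whole wide peak and so part of Sfta3-ps, was higher in MGE by 3.69 ± 0.23 than in LGE, by 3.67 ± 0.23 than in CGE and by 4.38 ± 0.26 than in CTX on the log2 scale (SE, edgeR adjusted p = 0.00405, 0.00476 and 0.0018). With the covered-length offset the differences from LGE and CGE were 1.71 and 1.78 and were not called (edgeR adjusted p = 0.388 and 0.525), and that from CTX was 2.38 and was called (0.0378).

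Of the 38 list genes 2 were called against LGE (0.117% of all genes), 2 against CGE (0.111%) and 9 against CTX (2.97%). With the replicate number as a block in the fit the counts were 0, 0 and 7 (0.0175%, 0.0175% and 1.84% of all genes). The calls against LGE and CGE below were thus lost under the block. Lhx6 had 263 and 235 CPM in MGE, 37.5 and 49.9 in CTX, 39.7 and 52.4 in LGE, and 50.8 and 55.4 in CGE. It was called as higher in MGE in all 3 comparisons, by 2.42 ± 0.17, 2.22 ± 0.17 and 2.47 ± 0.20 (SE, edgeR adjusted p = 0.00732, 0.0103 and 0.0037 against LGE, CGE and CTX). Peaks covered 30.5 and 30.4 kb of Lhx6 in MGE and 5.94 to 13.8 kb elsewhere. With the covered-length offset its differences were 0.38, 0.85 and 0.89 and none was called (edgeR adjusted p = 0.778, 0.933 and 0.258). It was the ventral regulator of the 15 listed that edgeR called against LGE, where DESeq2 also called Lhx8 (0.86, DESeq2 adjusted p = 2.82e-07). Lhx8, the LIM-homeodomain factor of MGE-derived cholinergic neurons, had 117 and 134 CPM in MGE and 37.9 to 73.7 CPM elsewhere, and was called against CGE (1.24 ± 0.14, edgeR adjusted p = 0.0496) and CTX (1.39 ± 0.20, 0.0187). Lhx8 was covered over 11.5 and 18.2 kb in MGE and 7.12 to 9.08 kb elsewhere, and neither call held with the offset (0.43 and 0.63, edgeR adjusted p = 0.998 and 0.347).

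In the hedgehog list of 6 genes, Shh, the ligand, was called against LGE (1.84 ± 0.16, edgeR adjusted p = 0.0172) and CTX (1.95 ± 0.17, 0.005). It had 103 and 106 CPM in MGE, 28.5 and 24.0 in CTX, 25.99 and 31.8 in LGE, and 38.5 and 47.5 in CGE. Both MGE samples lay above the rest. With the offset Shh was called against CTX (1.502, edgeR adjusted p = 0.0378) and not against LGE (1.03, 0.388). Gli3, the pathway's main repressor, fell by 1.12 relative to CTX (edgeR adjusted p = 0.0411), a direction that turned under the covered-length offset (0.41, adjusted p = 0.604). Of the 7 genes of adjoining domains, Gsx2 was called as higher (3.49, edgeR adjusted p = 0.0227) and Pax6 as lower (fell by 0.86, 0.023) than in CTX, and none was called against LGE or CGE by edgeR. DESeq2 called Pax6 as lower in MGE than in LGE and CGE (-0.71 and -0.62, DESeq2 adjusted p = 3.99e-13 and 9.67e-10). It also called Gli3 as lower than in both (-0.74 and -0.73, 0.000889 and 0.00128) and Shh as higher than in CGE (1.28, 4.87e-11). With the offset Gsx2 was called against CTX (1.70, edgeR adjusted p = 0.0378) and Pax6 was not (-0.92, 0.25).

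Of the 5 neighbours, none was called against LGE or CGE by edgeR. DESeq2 called Mbip as higher in MGE against both (0.86 and 1.01, DESeq2 adjusted p = 0.00275 and 0.000204). Nkx2-9, which shares its start site with E26, had log2 differences of 1.11 ± 0.41 from LGE (edgeR adjusted p = 0.489) and 1.13 ± 0.41 from CGE (0.451). Mbip was called against CTX (1.07, edgeR adjusted p = 0.0314), with the sign turned under the offset (-0.64, adjusted p = 0.347). None of the 5 other NK2 genes was called by edgeR in any comparison, and Ackr3 and Nkx6-2 completed the genes it called against CTX. Without MGE replicate 1 the counts of list genes called were 0, 0 and 2 against LGE, CGE and CTX (0.0402%, 0.0287% and 0.309% of all genes). Against LGE the count was 1 without LGE replicate 1 (0.103% of all genes). Against CGE it was 0 without CGE replicate 1 or 2 (0.0288% and 0.0637%), 1 without LGE replicate 2 (0.167%) and 4 without LGE replicate 1 (0.178%). Against CTX it was 14 without CTX replicate 2, where 9.17% of all genes were called. With the covered-length offset the counts were 0, 0 and 2 (0%, 0% and 0.075% of all genes), and by DESeq2 12, 12 and 21 (3.49%, 3.39% and 15.1%).

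Over the 8 samples and 14618 genes, the gene sums most like that of Nkx2-1 by Pearson's r of log2 CPM were those of Morn5 (r = 0.989), Rasgrp2 (0.988), Plppr3 (0.987), Dnal1 (0.987) and Lhx6 (0.984). The points share libraries and depth, and Morn5 neighbours Lhx6 on chromosome 2 and shares a peak with it in 2 samples. Counts of a shared peak enter both genes, and Morn5 was covered over 33.4 and 33.1 kb in MGE and 1.98 to 3.92 kb elsewhere. In each of these genes both MGE samples lay above all others, so each r rests largely on that gap.

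The deposited motif counts gave a genome-wide readout of sites for NKX factors. Of 6 such motifs among 579, 0 were called by edgeR in any of the 3 comparisons, where 0% of all motifs were called, and at an unadjusted p under 0.05 the number was 2 in each, beside 4.32%, 2.94% and 15.9% of all motifs. Of the 2 against CTX, Nkx2-5 was lower in MGE (-0.15 on the log2 scale, edgeR adjusted p = 0.263). DESeq2 called 0, 0 and 1 of them against LGE, CGE and CTX, beside 0.864%, 1.21% and 11.7% of all motifs. NKX2-8 had 1793 and 1604 counts per 1000000 motif counts in MGE, 1451 and 1395 in CTX, 1355 and 1425 in LGE, and 1399 and 1430 in CGE. The MGE samples were the 2 highest, by 0.25 ± 0.08 on the log2 scale over LGE (SE, edgeR adjusted p = 0.683).

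Among the marker lists of cell types, the GABAergic neuron and hypothalamic sums were higher and the microglial sum lower in both MGE samples than in the other 6, and the other lists overlapped. The summed counts of 11 GABAergic neuron markers were 2029 and 1993 CPM in MGE and 971 to 1649 elsewhere, and those of 10 progenitor markers 1787 and 1481 in MGE and 1190 to 1576 elsewhere. Dlx5 and Dlx6 are both in the GABAergic list and had equal sums in MGE (438 and 414 CPM), so the same counts enter repeatedly. This also held in CGE and LGE replicate 2, but not in CTX or LGE replicate 1, so the GABAergic sums are not directly comparable across samples. The hypothalamus, which also expresses Nkx2-1 and borders the MGE, was read from 6 of 6 markers, none of them at 0, whose sum was 471 and 451 CPM in MGE and 267 to 416 CPM elsewhere. Of these, Otp, Sim1 and Nkx2-4 were higher in both MGE samples than in the other 6, while Rax, Six6 and Fezf1 overlapped. Six6 had 50.9 and 44.4 CPM in MGE and 62.8 CPM in LGE replicate 2. Endothelial markers (6) summed to 186 and 176 CPM in MGE against 140 to 221, microglial markers (5) to 153 and 151 against 168 to 216, and mural markers (6) to 280 and 211 against 180 to 226. Erythroid (5) and glutamatergic (8) markers were at 47.1 and 38.7 against 43.1 to 51.8 CPM and at 340 and 324 against 329 to 962 CPM. The part of these cell types in the values of the locus was not tested.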

How the data were processed

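Single-nucleus ATAC-seq of 8 samples (4 regions, 2 each) was used. The authors deposited, per sample, peaks, raw counts per peak and nucleus, and raw counts per motif and nucleus. Per the labels they used Cell Ranger ATAC 1.2.0 and GRCm38. The deposited counts were mostly even, as counting both fragment ends gives. The barcodes were kept as deposited, and no doublet caller was run.

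Peaks were merged where they overlapped and counts summed per sample. Regions, genes (GENCODE M21 protein-coding) and motifs were tested with edgeR 4.0.16 in R 4.3.3 (TMM, filterByExpr, glmQLFit, glmQLFTest), with Benjamini-Hochberg adjustment over all features. The fit was also run on simulated counts with known changes, and the outcome is not given here. The locus sum and the share of nuclei were tested by exact permutation in Python 3.11.15. MGE nuclei were clustered by latent semantic indexing and Leiden (leidenalg 0.10.2, resolution 0.5) and named from fixed markers. A name needed at least 3 raised markers, more than in any other list, and a list mean of at least 0.25 on the log2 scale. No other list could have more of the 10 leading genes, and shallow clusters needed a marker among those 10. Clusters that failed any of these were left unnamed. The neuron-like cluster of 1674 nuclei had a list mean of 0.27.

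The members, gene lists and markers were chosen with earlier results of these data known. Named in full are the start-site region, the 8 members highest in MGE, the MGE-only members, the 3 with the lowest ratio of MGE to the rest, the list genes called and the 5 genes most like Nkx2-1. Alternatives were DESeq2 1.42.0, no filter, a replicate block, a covered-length offset, all 8 samples, other region and gene definitions, leaving out each sample, other thinning and, chosen after seeing the data, clustering at resolution 1.0. Genes that share a peak are each given its counts. Some items withheld for evaluation are not reported here.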

Additional observations from a re-analysis of the deposited data

How the results depend on the processing

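DESeq2 called 8 elements against LGE (17.4% of all regions). With all 8 samples in the eminence fits 2 elements were called against LGE and 1 against CGE, of 10 tested (0.694% and 0.325% of all regions), and with regions that had a peak in at least 2 samples 3 were called against CGE, of 20 tested (2.47% of all regions). The replicate block gave 6, 6, 4 and 0 elements against LGE, CGE and CTX and between LGE and CGE, beside 11.4%, 9.75%, 11.2% and 0% of all regions. The labels give same-numbered samples no shared batch, and by number the deviations of the groups correlated at -0.042 to 0.31, highest between LGE and CGE, and below 0.1 in 3 of 6 pairs of groups, so the numbers were not taken to pair the samples. Odd values made up 9.54% to 10.4% of the nonzero counts in replicate 1 libraries and 5.17% to 5.85% of those of replicate 2 libraries. Median peak width was 567 to 661 bp in replicate 1 libraries and 534 to 552 bp in replicate 2 libraries. By both measures the libraries differed by replicate number without overlap, and the part of this in the calls was not tested. List genes called were 12, 12 and 21 by DESeq2 against LGE, CGE and CTX (3.49%, 3.39% and 15.1% of all genes), and 0, 0 and 2 with the covered-length offset (0%, 0% and 0.075%). With peaks near start sites alone they were 1, 1 and 5 (0.082%, 0.0631% and 0.648% of all genes), and with the replicate block 0, 0 and 7 (0.0175%, 0.0175% and 1.84%). Under the block Lhx6 and Shh lost the call against LGE (edgeR adjusted p = 0.0706 and 0.0538), as did Lhx6 and Lhx8 against CGE (0.0857 and 0.094). In the fit of all 8 samples 1 was called against CGE (0.0865%). DESeq2 called 1 NKX motif against CTX (11.7% of all motifs). Under the offset, Gli3 (0.41) and Mbip (-0.64) changed sign against CTX. The cause of these changes was not tested.

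Leaving out 1 sample gave 5 to 7 elements against LGE, 3 to 6 against CGE, 2 to 8 against CTX and 0 between LGE and CGE, while the share of all regions called ran from 4.72% to 14.2%, 2.42% to 14.1%, 2.01% to 26.3% and 0% to 0.879%. It gave 0 to 3, 0 to 4 and 2 to 14 list genes (0.0402% to 0.734%, 0.0287% to 1.3% and 0.309% to 9.17% of all genes), 0 NKX motifs in each comparison, a locus difference of 1.89 to 2.42 and a difference in the share of nuclei with a count in E15 of 45.8 to 57.8 percentage points. The locus difference was 2.22 with all counts in peaks as library size and 2.79 within 50 kb. The difference in that share was 54.1 points at 10000 counts, 44.6 unthinned and 51.4 without the deepest nuclei. Without the filter on low counts the 31 values of single regions and genes kept their direction and call, as did all 31 under DESeq2, 24 under the replicate block (7 lost the call) and 15 under the offset (14 lost it). Clustering at resolution 1.0 moved the neuron to progenitor difference of E1, E5, E7 and E16 by more than the spread between replicates, to 2.09, 1.00, -0.34 and -1.81 on the log2 scale.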

Other observations

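A count in E15 and a count in a distal element were also looked for in the same nucleus, within 10 classes of depth. In MGE the number of nuclei with both was 1.00 to 1.07 times that expected from the shares within each class. E15 was recorded in 83.0% and 77.9% of the MGE nuclei, which leaves this ratio little room to rise, so the MGE range cannot be compared with that of the other samples. In the other samples it was 0.98 to 1.42 times, highest for E6 in LGE replicate 2, where 231 nuclei held both and 163 were expected. Residual differences in depth remain within a class, and no test was made.

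E1 in unnamed MGE nuclei had 37.4 and 26.1 CPM, between the values of the neuron-like and progenitor-like nuclei in each replicate, and E5 was higher there (84.3 and 62.2 CPM) than in both named classes.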
